A study of Mus musculus with 24 samples.

Results

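The genes described here are 38 matrix genes other than collagens: adhesive and matricellular glycoproteins, crosslinking and processing factors, elastic fibre proteins, proteoglycans, and laminins with other basement membrane proteins. They were taken by gene symbol from a table of 28450 features, and each symbol was found. RNA of whole kidney from C57BL/6 mice was sequenced in 4 groups of 6 libraries, 24 in all. Wild-type mice and mice lacking Nlrp3 (the labels write NLPR3 knock out) received saline or glyoxylate (Gly) at 75 mg/kg per day. The dose was given into the peritoneum in 200 µl daily from day 1 to day 7, when the kidneys were collected. Glyoxylate is a precursor of oxalate and is used in mice to produce calcium oxalate deposits in the kidney. The labels give no age and do not say whether the wild-type mice were littermates, and the knockout is named without its allele. Nlrp3 encodes the sensor of an inflammasome, a protein complex that activates caspase-1.

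The extracellular matrix of the kidney has an interstitial part between tubules and vessels and basement membranes beneath their cells. Fibronectin and the matricellular proteins are laid down early when tissue is injured, collagens and elastic fibres are assembled on such scaffolds, and lysyl oxidases link them into insoluble fibres. Laminins, nidogens and heparan sulfate proteoglycans form the basement membranes of tubules, vessels and glomeruli in the healthy organ, and small leucine-rich proteoglycans bind to collagen fibrils.

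Promoter sequence was available in the RefSeq table of build GRCm38.p6 for 25 of the 38 genes, in 33 entries that reach from 250 bases before to 50 bases after the start. Fn1, Lamc1, Thbs1, Eln, Loxl2, Lox, Mfap4, Lum, Dcn, Lama4, Mfap5, Loxl1 and Nid2 had no entry. The 100 bases before the start are printed for 3 genes. Serpinh1 and Bgn were the crosslinking and proteoglycan genes with the largest deficit in knockout kidneys under Gly. Postn rose in both genotypes and did not pass the test between them. In Serpinh1 and Bgn capitals mark GGGCGG, the core to which Sp1 family factors bind, or its reverse complement where it lies on the other strand. In Postn they mark TATAAA, the core element found shortly before many starts. The Serpinh1 stretch lies at chr7:99353240-99353339 on the minus strand, that of Bgn at chrX:73483501-73483600 on the plus strand and that of Postn at chr3:54361007-54361106 on the plus strand.
Serpinh1: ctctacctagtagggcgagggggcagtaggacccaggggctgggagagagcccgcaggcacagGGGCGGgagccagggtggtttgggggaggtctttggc
Bgn: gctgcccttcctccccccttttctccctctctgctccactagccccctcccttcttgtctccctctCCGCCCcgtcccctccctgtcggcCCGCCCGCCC
Postn: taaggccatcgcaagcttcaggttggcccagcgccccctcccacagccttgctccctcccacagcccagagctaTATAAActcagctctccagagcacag
The motif in Serpinh1 begins 37 bases before the start, and that in Postn 26 bases before it. Bgn carries the motif on the other strand at 34, 10 and 6 bases before the start, the last 2 overlapping. On either strand of the full entries, GGGCGG was found in 22 of the 33 entries, which belong to 18 of the 25 genes. It was found in 35.7% of all 32851 promoter entries. TATAAA was found in 6 of the 33 entries, those of Aspn, Ogn, Postn, Thbs2 and Tnc, and in 13.6% of all promoter entries. CACGTG, an E-box, was found in 2 of the 33 entries, both of Fbln1, and in 7.15% of all. The AP-1 motif TGANTCA was found in 0 of the 33 entries and in 7.81% of all. These matches describe letters in a window.

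The values are FPKM, fragments scaled to transcript length and to the mapped fragments of a library, which allow levels to be compared between genes per length. Differences were tested by limma on log2(FPKM + 1) with Benjamini-Hochberg adjustment over the 13020 features that reached 1 FPKM in at least 6 libraries, and a call needs an adjusted p under 0.05. Of the 38 genes 37 passed this filter, and Vcan did not. Ltbp2, Mfap5, Fbn1 and Lum lay under 1 FPKM in every saline library and passed only through Gly libraries. Others, such as Mfap2 and Mfap4, needed Gly libraries to pass too. The rise of such genes under Gly was thus partly a condition of being tested. Differences below are on the log2(FPKM + 1) scale, which understates changes of genes at low levels, and folds are ratios of group mean FPKM.

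The labels were checked against the data before the groups were compared. Nlrp3 was listed from 0.361 to 0.896 FPKM in wild-type Gly kidneys and from 0.119 to 0.144 FPKM in knockout Gly kidneys. Under saline it was low in both genotypes, at a median of 0.0705 FPKM in wild type and 0.0988 FPKM in knockout, which does not separate them. In 5 of the 6 saline knockout libraries (1, 2, 3, 5 and 6) 4 Y-linked genes were at or near 0, with no value above 0.0503 FPKM, while all other libraries, saline knockout library 4 included, expressed them. The labels give no sex, so animals of another sex and exchanged samples cannot be told apart, and Nlrp3 does not separate the saline genotypes. What the 5 libraries are is thus uncertain, and results that use that group are also given without those 5 libraries. Wild-type Gly libraries 1 and 5 had the highest shares of FPKM in ribosomal protein genes, 9.33% and 6.03% against 5.03% to 5.29% in the other 4. Library 5 lay nearer to the other 4 than to library 1. The number of 2 libraries was a choice, and results under Gly are also given without them. Markers of proximal tubule, the main cell type of kidney, summed to 814 FPKM or more in each library.

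Gly raised nearly the whole set in wild-type kidneys. Of 37 tested genes 34 rose and 0 fell, where 50.2% of all tested features rose and 13.3% fell. The median difference was 1.52 over these genes and 0.26 over all tested features. Ranked by class, the median was 1.93 for crosslinking and processing, 1.73 for adhesive and matricellular, 1.68 for elastic fibre, 1.43 for proteoglycan and 0.83 for basement membrane genes. The 3 genes that did not pass were Aspn, Lama5 and Lamb2. For 30 of the 37 genes all 6 Gly libraries lay above all 6 saline libraries, which held for 31.3% of all tested features. The counts include genes that passed the filter only through their Gly libraries, such as Ltbp2 and Mfap5.

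**Figure D1:**
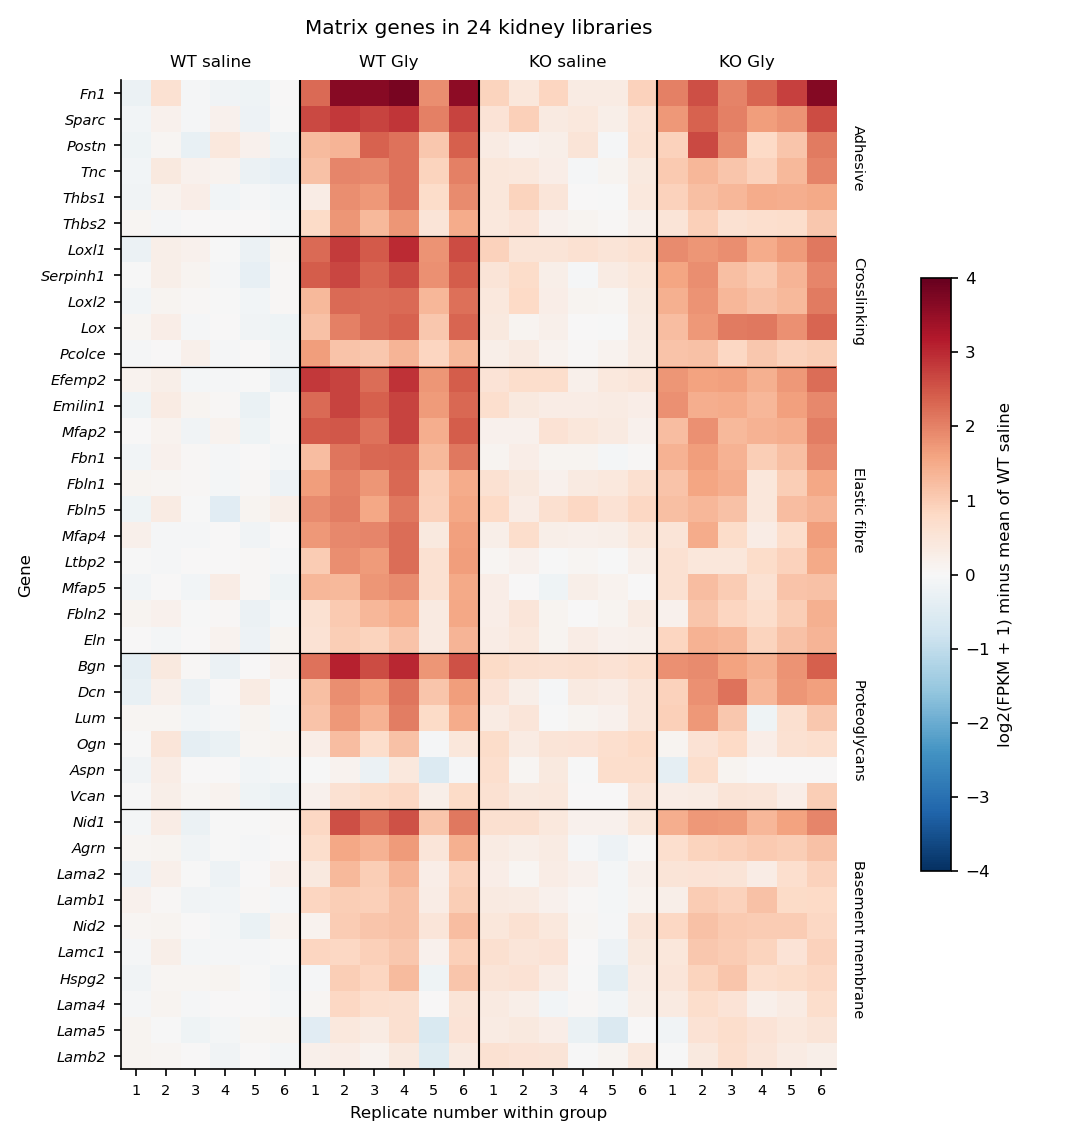
Each row is a gene, grouped by class, and each column is a library, grouped by genotype and treatment. Colour shows log2(FPKM + 1) relative to the mean of the 6 wild-type saline libraries. Wild-type Gly libraries are the most raised, libraries 1 and 5 among them are paler than the other 4, and the basement membrane rows change least.

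Among the adhesive and matricellular genes all 6 rose in wild type. Fn1 encodes fibronectin, the adhesive glycoprotein of provisional matrix. It had 1.13, 1.35 and 2.81 FPKM (lowest, median and highest) in wild-type saline kidneys and 8.06, 29.7 and 33.7 FPKM in wild-type Gly kidneys. The ranges were apart, and Gly libraries 1 and 5, at 11.2 and 8.06 FPKM, lay far below the other 4. Fn1 rose by 3.13 (SE 0.30, n = 6 per group, adjusted p 3.21e-09), the largest difference among the 38 genes on this scale and a 15.2-fold rise of the mean.

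Sparc, a matricellular protein that binds collagen and calcium, was at the highest mean level of the 38 genes in wild-type Gly kidneys. It had 21.2, 23.9 and 27.9 FPKM under saline and 101, 164 and 185 FPKM under Gly in wild type. In knockout kidneys it had 29.0, 34.8 and 48.5 FPKM under saline and 79.6, 94.2 and 154 FPKM under Gly. Saline and Gly ranges were apart in each genotype, and the Gly ranges of the genotypes overlapped. The rise was 2.62 (SE 0.16, adjusted p 1.08e-12) in wild type and 1.51 (SE 0.16, adjusted p 1.45e-07) in knockout.

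Postn and Tnc encode periostin and tenascin-C, matricellular proteins that are scarce in healthy adult kidney. Postn went from a median of 0.552 to 4.70 FPKM in wild type, and Tnc from 1.00 to 6.58 FPKM, with no overlap for either gene. Thbs1 and Thbs2 encode thrombospondins, and thrombospondin-1 can activate latent TGF-beta. Thbs1 had a median of 9.05 FPKM under saline and 35.9 FPKM under Gly in wild type, with Gly library 1 as low as 11.9 FPKM, just above the highest saline library at 11.6 FPKM. Thbs2 went from 0.422 to 2.72 FPKM, a 6.21-fold rise of the mean that reads as 1.26 on the log2(FPKM + 1) scale.

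All 5 crosslinking and processing genes rose in both genotypes. Serpinh1 encodes HSP47, the collagen chaperone of the endoplasmic reticulum. It had 18.2, 23.3 and 27.02 FPKM under saline and 85.2, 127 and 153 FPKM under Gly in wild type, and 22.4, 30.5 and 39.4 FPKM under saline and 48.4, 65.5 and 92.3 FPKM under Gly in knockout. Both Gly groups lay above their saline groups, and the Gly groups overlapped only through wild-type library 5, the lowest at 85.2 FPKM, and knockout libraries 2 and 6. Serpinh1 rose by 2.38 (SE 0.16, adjusted p 5.58e-12) in wild type and by 1.12 (SE 0.16, adjusted p 7.07e-06) in knockout.

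Lox, Loxl1 and Loxl2 encode lysyl oxidases, the enzymes that oxidise lysines of collagen and elastin so that they crosslink. Loxl1 had 0.658, 1.02 and 1.33 FPKM under saline and 5.85, 10.5 and 14.6 FPKM under Gly in wild type, a 10.6-fold rise of the mean. In knockout it had 1.82, 1.91 and 2.71 FPKM under saline and 4.51, 5.91 and 7.44 FPKM under Gly, a 2.92-fold rise. Knockout Loxl1 thus began above the wild-type saline range and reached a lower Gly median. Lox had 0.549, 0.711 and 1.06 FPKM under saline and 2.63, 6.57 and 7.88 FPKM under Gly in wild type. In knockout Lox had 0.715, 0.914 and 1.29 FPKM under saline and 3.06, 5.69 and 7.73 FPKM under Gly, so that its Gly range was nearly that of wild type. Loxl2 rose 7.37-fold in wild type and 3.22-fold in knockout. Pcolce, which enhances the cleavage of procollagen C-propeptides, was abundant under saline at a median of 30.6 FPKM and rose least of the class, 2.42-fold in wild type and 1.77-fold in knockout.

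All 11 elastic fibre genes rose in wild type and 10 rose in knockout. Eln encodes tropoelastin, the core of the fibre. It had 0.884, 1.21 and 1.41 FPKM under saline and 1.82, 3.18 and 4.58 FPKM under Gly in wild type, and 1.38, 1.58 and 1.94 FPKM under saline and 2.995, 4.19 and 4.70 FPKM under Gly in knockout. Its rise was 0.89 (SE 0.13) in wild type and 0.92 (SE 0.13) in knockout, the smallest of the class in wild type. Fbn1 encodes fibrillin-1, the backbone of microfibrils, and rose from a median of 0.341 to 4.88 FPKM in wild type and from 0.449 to 2.54 FPKM in knockout. Ltbp2, which is named as a latent TGF-beta binding protein and sits on fibrillin microfibrils, was near the floor under saline, at most 0.0969 FPKM in wild type. It reached 0.626, 2.41 and 4.04 FPKM under Gly in wild type and 0.446, 0.688 and 2.02 FPKM in knockout.

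Efemp2 (fibulin-4) and Fbln5 (fibulin-5) help to place tropoelastin and lysyl oxidase on microfibrils. Efemp2 had 1.95, 2.45 and 3.11 FPKM under saline and 10.8, 19.8 and 24.9 FPKM under Gly in wild type, and 3.02, 4.02 and 4.75 FPKM under saline and 8.30, 10.3 and 15.4 FPKM under Gly in knockout. Fbln5 went from a median of 4.53 to 16.9 FPKM in wild type and from 7.82 to 11.5 FPKM in knockout, where the ranges overlapped. Its knockout rise was small, 0.47 (SE 0.18, adjusted p 0.0497), at the threshold. Emilin1, a glycoprotein at the interface of elastin and microfibrils, rose from a median of 2.93 to 18.9 FPKM in wild type and from 3.86 to 10.5 FPKM in knockout.

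The microfibril-associated genes Mfap2, Mfap4 and Mfap5 started low, with wild-type saline medians of 0.451, 0.278 and 0.176 FPKM. Mfap2 reached a median of 6.82 FPKM in wild-type Gly kidneys and 2.85 FPKM in knockout Gly kidneys. Mfap4 reached 3.59 FPKM in wild type, with library 5 at only 0.689 FPKM, and 1.13 FPKM in knockout. It was the elastic fibre gene that did not pass in knockout, at 0.55 (SE 0.24, adjusted p 0.0817). Mfap5 went from 0.176 to 2.23 FPKM in wild type and from 0.270 to 1.55 FPKM in knockout. Fbln1 and Fbln2, fibulins found in both elastic fibres and basement membranes, rose 5.19-fold and 4.0-fold in wild type and 2.09-fold and 2.31-fold in knockout.

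The proteoglycans were the class with the most unequal changes. Bgn and Dcn encode biglycan and decorin, related small leucine-rich proteoglycans. Bgn had 17.8, 23.5 and 30.4 FPKM under saline and 81.3, 141 and 200.5 FPKM under Gly in wild type, and 35.1, 36.4 and 40.3 FPKM under saline and 62.9, 83.1 and 127 FPKM under Gly in knockout. Dcn had 7.75, 9.72 and 12.6 FPKM under saline and 22.1, 33.1 and 46.9 FPKM under Gly in wild type, and 9.37, 12.5 and 14.6 FPKM under saline and 19.6, 33.9 and 47.0 FPKM under Gly in knockout. Bgn rose 6.17-fold in wild type and 2.33-fold in knockout, and Dcn rose 3.31-fold and 2.63-fold.

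Lum, the keratan sulfate proteoglycan lumican, went from a median of 0.341 to 2.61 FPKM in wild type and from 0.588 to 1.67 FPKM in knockout, where 1 Gly library stood at 0.175 FPKM. Ogn (osteoglycin) rose by 0.64 (SE 0.18, adjusted p 0.00356) in wild type with overlapping ranges, and its difference in knockout was -0.10 (SE 0.18, adjusted p 0.727). Aspn (asporin) did not pass in either genotype, with wild-type medians of 0.931 FPKM under saline and 0.937 FPKM under Gly. After quantile normalization Aspn passed as lower in both genotypes, by -0.37 in wild type and -0.55 in knockout, and it was lower in knockout after median-ratio scaling too. Vcan, the large proteoglycan versican, had medians of 0.291 and 1.02 FPKM in wild type and 0.684 and 0.679 FPKM in knockout, under saline and Gly. With no filter its wild-type difference was 0.56 (adjusted p 0.00257, limma).

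The basement membrane genes changed least. In each genotype 8 of 10 rose, and Lama5 and Lamb2 did not pass. These encode laminin alpha-5 and beta-2, chains of the laminin of the mature glomerular filter. Lamb2 had 6.69, 7.63 and 8.26 FPKM under saline and 5.07, 9.01 and 10.2 FPKM under Gly in wild type, and 7.35, 10.9 and 12.1 FPKM under saline and 7.37, 10.0 and 12.5 FPKM under Gly in knockout. The 4 ranges overlapped. Lama5 had wild-type medians of 9.21 and 11.99 FPKM, with a difference of 0.14 (95% interval -0.27 to 0.55), and its knockout difference was 0.40 (95% interval -0.01 to 0.81). Without wild-type Gly libraries 1 and 5, Lama5 and Lamb2 passed in wild type, at 0.48 (adjusted p 0.0122) and 0.29 (adjusted p 0.0405), and Lama5 in knockout (adjusted p 0.0323).

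Nid1, encoding nidogen-1, which links laminin to collagen IV, rose most of the class. It had 2.36, 2.87 and 3.89 FPKM under saline and 6.05, 16.6 and 22.4 FPKM under Gly in wild type, and 3.46, 4.33 and 5.13 FPKM under saline and 8.97, 11.4 and 14.3 FPKM under Gly in knockout. The ranges within each genotype were apart, and Nid1 rose by 1.89 (SE 0.22) in wild type and 1.21 (SE 0.22) in knockout. Its relative Nid2 rose by 0.86 and 0.65. Agrn, the heparan sulfate proteoglycan agrin, was among the most abundant members and went from a median of 16.3 to 45.2 FPKM in wild type and from 18.1 to 33.1 FPKM in knockout. Hspg2, which encodes perlecan, rose by 0.67 and 0.57 in wild type and knockout.

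The other laminin chains rose modestly. Lamb1 (beta-1), the most abundant chain of the set, went from a median of 21.8 to 43.2 FPKM in wild type and from 24.1 to 40.4 FPKM in knockout. Lamc1 (gamma-1), the chain shared by most laminins, had the same Gly median in both genotypes, 11.6 FPKM. Lama2 (alpha-2) and Lama4 (alpha-4, a chain of vessel laminins) rose by 0.87 and 0.45 in wild type and by 0.42 and 0.37 in knockout.

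**Figure D2:**
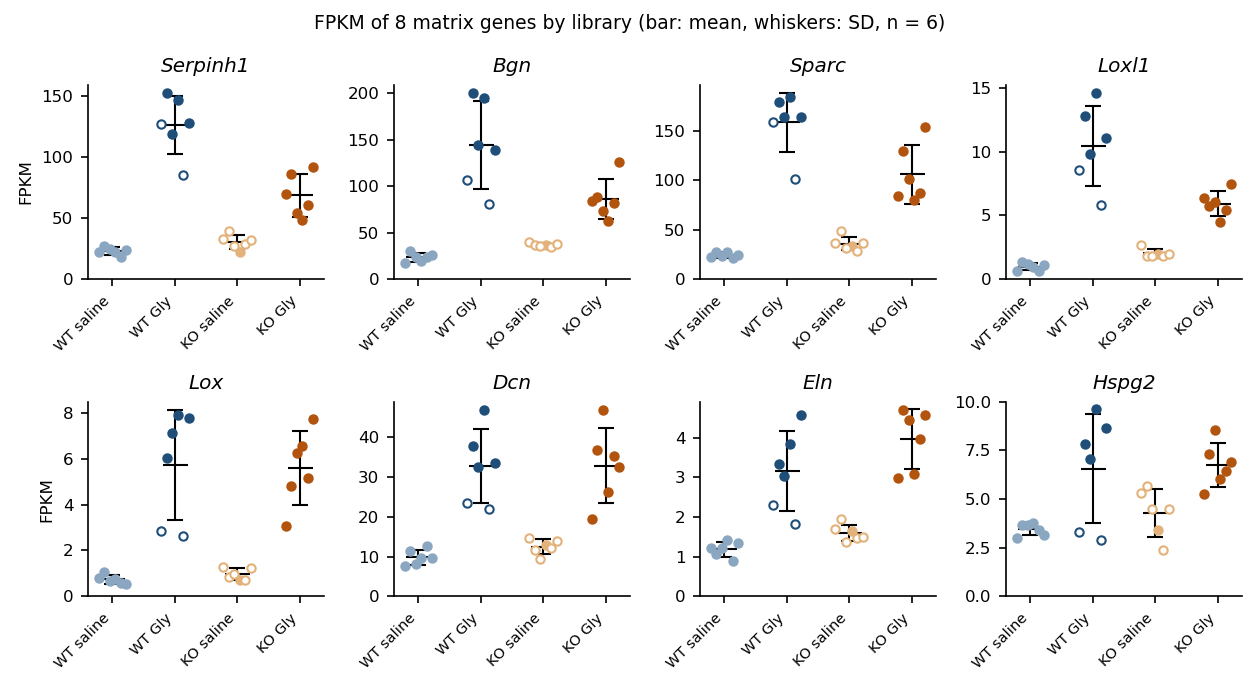
FPKM per library on a linear axis for genes of each class in the 4 groups, with 1 point per library. Bars show group means and whiskers the SD. Open symbols are wild-type Gly libraries 1 and 5 and the 5 saline knockout libraries that lack Y-linked transcripts. Serpinh1 and Bgn are lower in knockout than wild-type Gly kidneys, while Lox and Dcn span like ranges in both.

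In knockout kidneys the response to Gly had the same direction with fewer and smaller changes. Of 37 genes 32 rose and 0 fell, where 23.7% of all tested features rose and 5.72% fell. All 6 Gly libraries lay above all 6 saline libraries for 23 genes, against 15.5% of all tested features. The median was 0.85 over the genes and 0.12 over all tested features. By class the medians were 1.18 for crosslinking, 1.15 for adhesive, 0.89 for elastic fibre, 0.62 for proteoglycan and 0.54 for basement membrane genes. Those that did not pass were Mfap4, Ogn, Aspn, Lama5 and Lamb2. Median-ratio scaling moved the median of all features by more than 0.1, from 0.26 to 0.00 in wild type and from 0.12 to -0.01 in knockout, and left medians of 1.31 and 0.70 over the genes. With that scaling 29.2% of all tested features rose and 28.0% fell in wild type, and 12.2% rose and 12.3% fell in knockout, while 33 and 28 of the 37 genes rose and 0 and 1 fell.

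The saline knockout group bears on this count. Without its 5 libraries that lack Y-linked transcripts, 1 saline knockout library remained, its spread taken from the other groups, and 11 genes rose where 4.62% of all features did. These were Fn1, Sparc, Lox, Loxl1, Loxl2, Pcolce, Serpinh1, Fbn1, Efemp2, Emilin1 and Dcn. The median difference over the genes was then 0.92, against 0.85 with all libraries. The wild-type count was 34 with or without them.

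**Figure D3:**
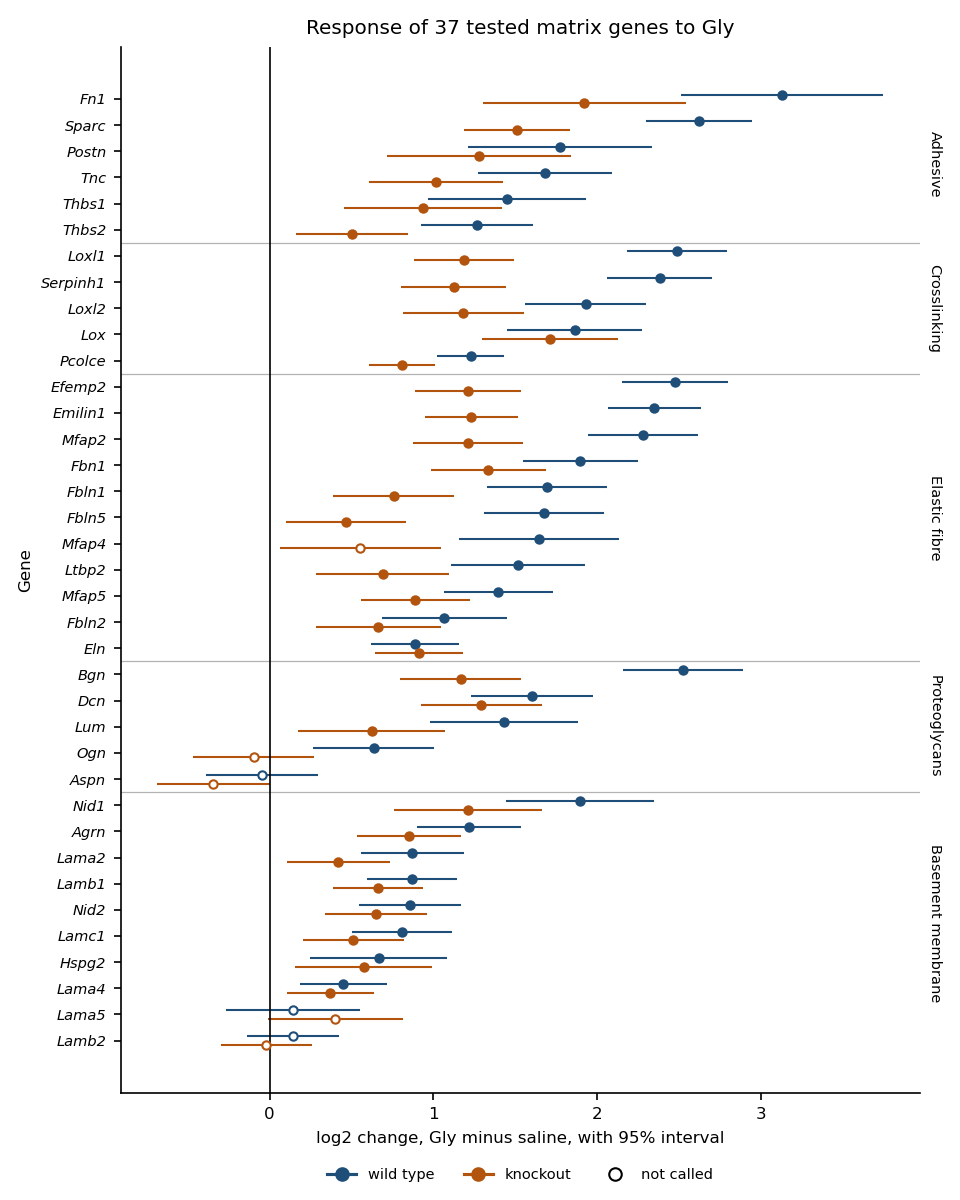
Log2 difference of Gly against saline for each gene, in wild type and knockout, with 95% intervals from limma. Filled symbols passed the test and open symbols did not. The wild-type difference exceeds the knockout difference for most genes, and the pairs for Lox and Eln lie close together.

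Under Gly the knockout kidneys had lower levels of 14 of the 37 genes and higher levels of 0, where 21.4% of all tested features were lower and 8.37% higher. The median difference, knockout minus wild type, was -0.30 over the genes and -0.06 over all tested features. By class, 9 of 11 elastic fibre genes were lower, 2 of 5 crosslinking genes, 2 of 6 adhesive genes, 1 of 5 proteoglycans and 0 of 10 basement membrane genes. The class medians were -0.55, -0.41, -0.46, -0.13 and 0.02 in that order. Among the genes counted as lower, Ltbp2, Mfap5 and Fbn1 passed the filter only through Gly libraries. The Gly ranges of the genotypes overlapped for every gene, 0 of 37 lying wholly lower in knockout, against 6.30% of all tested features. After median-ratio scaling 13 genes were lower and 1 higher, where 15.3% of all tested features were lower and 13.3% higher.

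Serpinh1 showed the largest difference of the set, -0.89 (SE 0.16, adjusted p 0.000199). Among the elastic fibre genes Efemp2 and Mfap2 differed by -0.75 each (adjusted p 0.00101 and 0.00143), Mfap4 by -0.75 (adjusted p 0.0195), Ltbp2 by -0.74 (adjusted p 0.00661) and Emilin1 by -0.74 (adjusted p 0.000347). Fbln5, Fbln1, Fbn1 and Mfap5 differed by -0.55, -0.50, -0.47 and -0.43, with adjusted p from 0.0219 to 0.0453. Ltbp2 reached 1 FPKM in no saline library and, among knockout Gly libraries, only in library 6, at 2.02 FPKM. It thus passed the filter mostly through wild-type Gly libraries, and its lower level in knockout was partly a condition of being tested. Bgn differed by -0.70 (SE 0.18, adjusted p 0.0046), Loxl1 by -0.69 (SE 0.15, adjusted p 0.00124), Sparc by -0.60 (SE 0.16, adjusted p 0.00581) and Thbs2 by -0.51 (SE 0.17, adjusted p 0.0222).

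Several genes that rose strongly did not differ detectably by genotype. Lox differed by 0.02 (95% interval -0.39 to 0.44) and Dcn by 0.00 (95% interval -0.37 to 0.37). Fn1 differed by -0.57 (95% interval -1.19 to 0.05), an interval wide enough to hold a difference as large as that of Serpinh1. Lum, at -0.55 (adjusted p 0.0593), and Loxl2, at -0.41 (adjusted p 0.0844), missed the threshold. Eln and Fbln2 were the elastic fibre genes not called, at 0.28 and -0.19. Eln passed as higher in knockout after median-ratio scaling (0.33, adjusted p 0.029) and after quantile normalization (0.34, adjusted p 0.014).

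**Figure D4:**
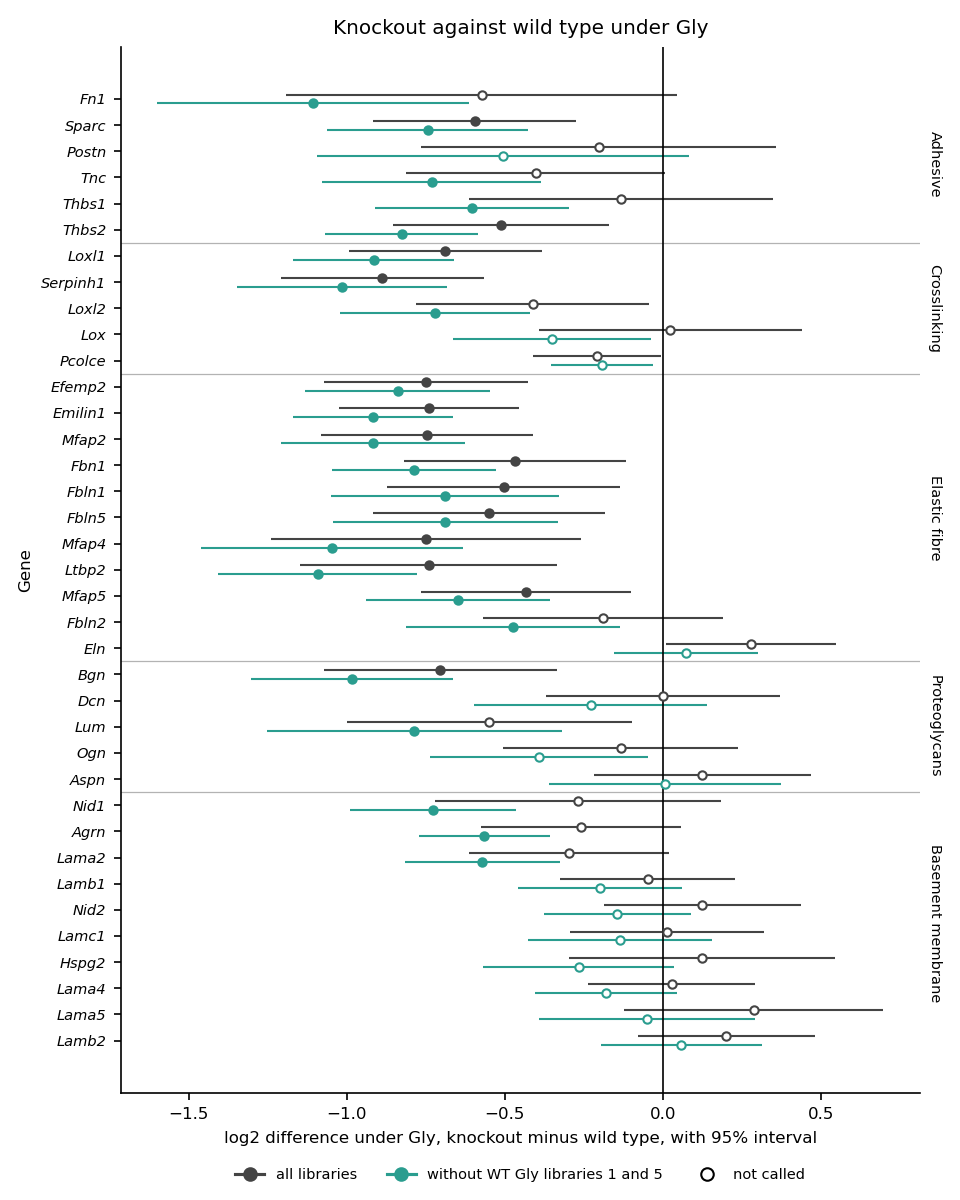
Log2 difference of knockout against wild type under Gly for each gene, with all libraries and without wild-type Gly libraries 1 and 5, with 95% intervals from limma. Filled symbols passed the test. Leaving out the 2 libraries moves most genes to lower values, Fn1 from -0.57 to -1.11.

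Wild-type Gly libraries 1 and 5 weighed on this comparison. Library 5 was the lowest wild-type Gly library for 32 of 38 genes and among the 2 lowest for all 38, and library 1 was among the 2 lowest for 27. Fn1 in libraries 1 and 5 stood at 0.368 and 0.265 of the median of the other 4, and Nid1 at 0.309 and 0.386. Pcolce in library 1 stood at 1.37 of it and Fbln5 at 1.05. Libraries 1 and 5 were together the 2 lowest for 27 genes, so leaving them out moves the differences of those genes down by construction. Without both libraries 23 of 37 genes were lower in knockout, where 32.2% of all features were, and the median was -0.65. The added genes were Fn1 (-1.11), Lum (-0.79), Tnc (-0.73), Nid1 (-0.73), Loxl2 (-0.72), Thbs1 (-0.60), Lama2 (-0.57), Agrn (-0.56) and Fbln2 (-0.47). Of the basement membrane genes 3 were then called. Still not called were Lox (-0.35), Dcn (-0.23), Eln (0.07) and Hspg2 (-0.27), as well as Postn, Pcolce, Ogn, Aspn, Lama4, Lama5, Lamb1, Lamb2, Lamc1 and Nid2.

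Over all tested features, levels in these 2 libraries went with transcript length. Over those with longest transcripts under 2000 bases, library 1 was 0.56 above the mean of the other 4 in the median, and over those of 7000 bases or more it was 0.82 below it (-0.82). Library 5 went from -0.02 to -0.61 over the same bins. The tested genes of the set lay lower than all features in each bin: from the shortest to the longest (2, 13, 14 and 8 genes, with limits at 2000, 4000 and 7000 bases) their medians were -0.12, -0.25, -0.81 and -0.89 in library 1. In library 5 they were -1.28, -0.81, -0.94 and -1.06, with no order by length. Basement membrane genes had the longest transcripts, with a median of 6856.5 bases, against 5871.5 for adhesive and matricellular, 3852 for elastic fibre, 3297 for crosslinking and 2616 for proteoglycan genes. The 14 genes called lower under Gly had a median of 2981.5 bases and the 23 not called 5629. In the median over all tested features, the difference between genotypes under Gly went from -0.22 in the shortest bin to 0.06 in the longest with all libraries, and from -0.12 to -0.17 without the 2 libraries. Over the genes of the set it was -0.75, -0.55, -0.16 and -0.28 from the shortest to the longest bin with all libraries, and -0.98, -0.74, -0.49 and -0.57 without the 2, so that the shorter members were lower with and without them. The part of length in the class difference was not tested.

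**Figure D5:**
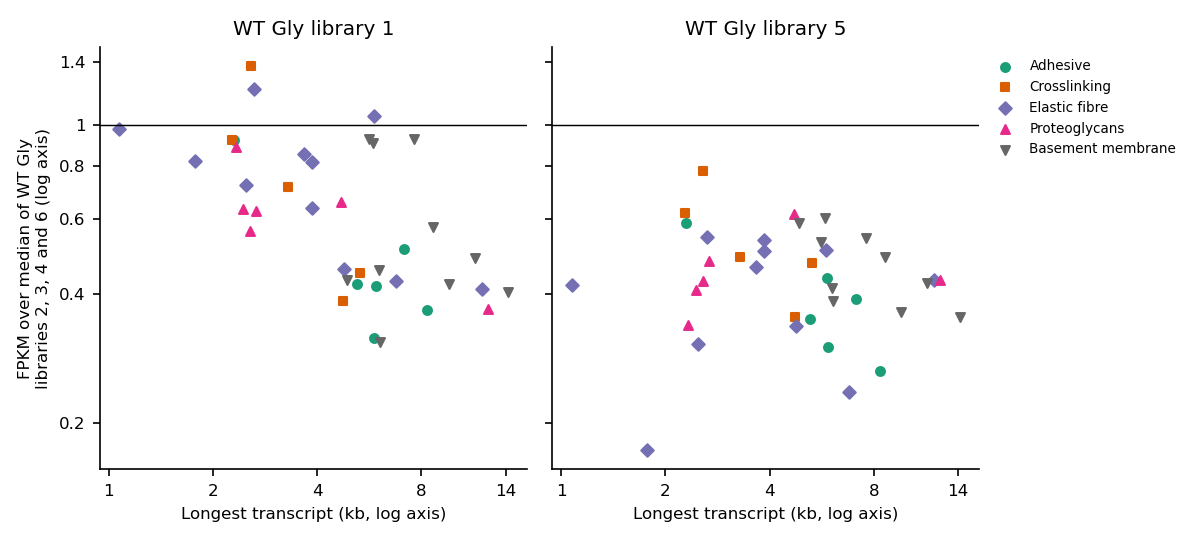
Each gene's FPKM in wild-type Gly library 1 and library 5 is divided by the median of the other 4 wild-type Gly libraries. The ratio is drawn on a log axis against the length of the longest transcript in kb, also on a log axis. A line marks a ratio of 1, and symbols show the class. Most of the 38 genes lie below the line in library 1, where Pcolce, Efemp2 and Fbln5 lie above it. In library 5 all lie below it.

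Single libraries moved the count under Gly too. It was 8 without wild-type Gly library 4, which was the highest of its group for 26 genes, where 19.3% of all tested features were lower. It was 9 without wild-type Gly library 2 (19.9% of all features), 9 without knockout Gly library 4 (19.0%) and 21 without wild-type Gly library 5 (26.2%). Knockout Gly library 6 was the highest of its group for 22 genes. Without the saline knockout libraries that lack Y-linked transcripts, which enter only through the shared spread, 11 genes were lower where 18.5% of all features were. Fbln1, Fbn1 and Mfap5 then missed the threshold.

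Under saline 6 of 37 genes were higher in knockout and 0 lower, where 6.92% of all tested features were higher and 3.67% lower. After median-ratio scaling 6 were higher too, where 5.27% of all tested features were higher and 5.41% lower. The 6 genes without that scaling were Fbln5 (0.66, adjusted p 0.0191), Bgn (0.66, adjusted p 0.0196), Loxl1 (0.61, adjusted p 0.00844), Ogn (0.60, adjusted p 0.034), Sparc (0.52, adjusted p 0.0346) and Efemp2 (0.51, adjusted p 0.0371). Among these 6 the ranges were apart for Sparc, Loxl1 and Bgn and overlapped for Fbln5, Ogn and Efemp2. They were also apart for Fbln1 and Mfap2, which were not called. The share of all tested features with saline ranges apart was not counted, so this separation has no background. Knockout library 4, the one with Y-linked transcripts, had 33.4 FPKM of Sparc, 1.99 of Loxl1, 36.3 of Bgn, 8.58 of Fbln5 and 5.10 of Ogn, each above the highest wild-type saline library. Its Efemp2 level of 3.02 FPKM lay within the wild-type range. Without the 5 other libraries 0 genes and 0.00% of features passed limma with Benjamini-Hochberg adjustment, and 1 gene and 101 features had an unadjusted p under 0.05. The differences were then 0.83 for Fbln5, 0.63 for Bgn, 0.60 for Loxl1, 0.54 for Ogn, 0.43 for Sparc and 0.20 for Efemp2.

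The interaction compares the genotypes' responses to Gly, knockout response minus wild-type response. It was below 0 and passed for 16 of 37 genes and above 0 for 0, where 20.3% of all tested features were lower and 6.28% higher. The median was -0.56 over the genes and -0.16 over all tested features. The 16 genes include Ltbp2, which passed the filter mostly through wild-type Gly libraries. After median-ratio scaling 15 genes were below 0, where 11.3% of all tested features were lower and 10.5% higher. The largest values were -1.36 for Bgn (SE 0.25, adjusted p 0.000501), -1.30 for Loxl1 (SE 0.21, adjusted p 0.000142), -1.26 for Efemp2 and for Serpinh1 (adjusted p 0.000314 and 0.000296), and -1.21 for Fn1 and for Fbln5 (adjusted p 0.0371 and 0.00122). Lox (-0.15, 95% interval -0.74 to 0.44), Eln (0.03, 95% interval -0.35 to 0.41) and all 10 basement membrane genes did not pass. Loxl1, Bgn, Sparc, Efemp2 and Fbln5 combined a higher saline level in knockout with a lower Gly level. Without the 5 saline knockout libraries 0 of the 37 genes and 10 of all features passed limma, 9 of the genes with an unadjusted p under 0.05, and Bgn then had -1.34 and Loxl1 -1.29. Without wild-type Gly libraries 1 and 5 the count was 27, where 36.9% of all features were lower.

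Knockout kidneys under Gly remained above saline wild type. Of 37 genes 35 were higher and 0 lower, where 38.9% of all tested features were higher and 6.72% lower, and Aspn and Lama5 did not pass. The median was 1.13 over the genes and 0.20 over all tested features. After median-ratio scaling 33 genes were higher, where 16.9% of all tested features were higher and 16.3% lower. Fn1 differed by 2.56 (SE 0.30, adjusted p 4.15e-07), Sparc by 2.03 (SE 0.16, adjusted p 1.06e-09), Lox by 1.89 (SE 0.20, adjusted p 1.03e-07) and Bgn by 1.82 (SE 0.18, adjusted p 3e-08). This comparison and those above share control or Gly libraries, so they are not separate evidence.

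Genes with related roles were counted from other lists, to be read against the shares of all tested features above: 50.2% rose in wild type, 23.7% rose in knockout and 21.4% were lower in knockout under Gly. In the other direction 13.3% fell in wild type, 5.72% fell in knockout and 8.37% were higher in knockout under Gly. Among other crosslinking and processing enzymes 13 of 13 tested rose in wild type and 11 in knockout, and 7 were lower in knockout under Gly. Fkbp10, a chaperone of procollagen, rose by 1.77 and 1.06 in wild type and knockout, and Tgm2, the crosslinking enzyme transglutaminase 2, by 1.03 and 0.52. Among 22 tested matrix receptors 19 rose in wild type and 15 in knockout, and 7 were lower in knockout under Gly. Itgb6, an integrin chain that takes part in TGF-beta activation, rose by 1.73 and 1.06, and Sdc1, syndecan-1, by 1.34 and 0.80. Of 21 other matrix genes 16 rose and 2 fell in wild type, 8 rose and 1 fell in knockout, and under Gly 2 were higher and 2 lower in knockout. Tgfbi (-0.64) and Tinagl1 (-0.68) were the lower ones, and the 2 higher ones differed by at most 0.47. Of 5 tested laminin chains outside the set, 1 rose and 1 fell in wild type, and 1 rose and 0 fell in knockout. The largest difference of the list was 1.00 in wild type and 0.996 in knockout. Lama3 was the chain that fell in wild type, by 0.44 (adjusted p 0.039). Under Gly 0 of the 5 were called between the genotypes.

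Many markers of matrix-producing cells rose under Gly too, to be read against the same shares of all tested features. Of 9 tested fibroblast and pericyte markers, Dcn and Lum among them, 7 rose in wild type and 7 in knockout. In each genotype 2 were not called, and 4 were lower in knockout under Gly. Of 5 myofibroblast and smooth muscle markers 4 rose in wild type and 2 in knockout, and 2 were lower in knockout under Gly. The 7 markers outside the 38 genes summed to 23.5 to 31.5 FPKM in wild-type saline, 107 to 288 FPKM in wild-type Gly, 29.9 to 39.3 FPKM in knockout saline and 84.5 to 236 FPKM in knockout Gly kidneys. Wild-type Gly libraries 5 and 1 were the lowest of their group in this sum, at 107 and 136 FPKM, and knockout Gly library 6 was the highest of its group at 236 FPKM. Collagens of the list, Col1a1, Col1a2 and Col3a1, make up part of that sum, and 0 markers were at 0 throughout a group. Macrophage markers rose in 7 of 7 cases in wild type and 6 in knockout, and all 7 were lower in knockout under Gly. Their sum had medians of 39.1 and 519 FPKM in wild type and 45.9 and 193 FPKM in knockout, under saline and Gly. Proximal tubule markers went the other way: 5 of 6 fell in wild type and 1 of 6 in knockout, and 4 of 6 were higher in knockout under Gly. Their sum had medians of 2056 and 953 FPKM in wild type and 1704 and 1636 FPKM in knockout, under saline and Gly. In bulk kidney fewer cells of a type and less RNA per cell cannot be told apart, and the part of cell numbers in the results was not tested.

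Under saline the markers of glomerulus and vessel differed as well. Of 7 podocyte markers 4, and of 10 endothelial markers 5, were higher in knockout, where 6.92% of all tested features were. Summed podocyte levels were 61.1 to 125 FPKM in knockout and 47.4 to 65.1 FPKM in wild type. Knockout library 4, the one with Y-linked transcripts, was the lowest of its group at 61.1 FPKM and lay within the wild-type range. In the endothelial sum it was the lowest too, at 136 FPKM, above the wild-type range of 110 to 132 FPKM. The part of these markers in the saline differences of Bgn, Sparc and the other 4 genes was not tested.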

How the data were processed

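RNA was measured in 24 kidney libraries, 6 in each of 4 groups taken from the sample titles. The labels do not say more of the animals than genotype, strain and treatment, so the spread behind each p-value is that between these libraries and may be partly technical. The authors deposited FPKM, 1 column for each library. Bowtie 0.12.2, mm8 and mm9 appear in the submitters' processing notes, which do not say what each was used for. The program behind the FPKM, its gene models and its strand setting: not given in the sources used here. Reads of overlapping genes therefore cannot be told apart. FPKM hold no counts, the depth is unknown, and no interval that needs it is given. The deposited FPKM sum to 439749 to 539018 per library, which is not a depth.

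Differences were tested in R 4.3.3 by limma 3.58.1, with the prior variance trended on mean level, on log2(FPKM + 1), in 1 fit of all 24 libraries with a mean per group. Features that reached 1 FPKM in 6 or more libraries, 13020 of 28450, were tested, two-sided, with Benjamini-Hochberg adjustment over all of them and a threshold of 0.05. The test was checked on simulated data. Alternatives changed the pseudocount (0.1 and 0.5), the filter, the scaling, the library weights, the samples in the fit and a replicate block, and left out libraries. The 38 genes, their classes and the other lists were chosen with earlier results of these data known, and all 38 are named. Genes of other lists are named only among the 3 smallest p of a list and comparison. The description by transcript length, with each gene's longest GENCODE transcript (found for 94.7% of tested features), was chosen after seeing the data. Promoters came from a RefSeq table of build GRCm38.p6, which differs from the builds named, so no coordinates of the deposited table are used. Some genes of the other lists are not reported here.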

Additional observations from a re-analysis of the deposited data

Results flagged for a closer look

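The response to Gly differed between the genotypes, by limma's interaction term with Benjamini-Hochberg adjustment, for 16 genes, all smaller in knockout. Of all tested features 20.3% were lower and 6.28% higher in this term. The interaction on the log2(FPKM + 1) scale was -1.21 for Fn1, -1.11 for Sparc, -0.76 for Thbs2, -1.30 for Loxl1, -0.75 for Loxl2, -0.42 for Pcolce and -1.26 for Serpinh1. It was -0.94 for Fbln1, -1.21 for Fbln5, -1.26 for Efemp2, -1.07 for Mfap2, -1.09 for Mfap4, -0.83 for Ltbp2 and -1.12 for Emilin1. It was -1.36 for Bgn and -0.73 for Ogn. Each rests on the saline knockout group, of which 5 of 6 libraries lack Y-linked transcripts. Ltbp2 passed the filter mostly through wild-type Gly libraries, so its value was partly a condition of being tested.

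Single libraries far from the other 5 of their group were sought by the gap to the nearest over the range, on log2(FPKM + 1). They were found in 13 of 152 sets of a gene and a group, where chance gives about 1 in 20. The sets share libraries and are not independent, so the excess over chance was not tested. Wild-type Gly library 5 was the low library in 5 of the 13 sets, with 101 FPKM for Sparc, 0.689 for Mfap4, 26.6 for Lamb1, 5.07 for Lamb2 and 6.57 for Lamc1. Wild-type saline library 2 was high for Fn1 at 2.81 FPKM, Aspn at 1.44 and Lamc1 at 6.98. Saline knockout library 1 was high for Loxl1 at 2.71 FPKM and Emilin1 at 5.19. Among knockout Gly libraries, library 4 was low for Fbln5 at 6.41 FPKM, library 1 was low for Lama5 at 8.05 and library 6 was high for Vcan at 1.52.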

How the results depend on the processing

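No member changed direction with a call under any alternative run. The counts for Gly against saline in wild type (34 to 35 with 1 library left out) and Gly knockout against saline wild type (33 to 36) stayed within 1.5 times of 34 and 35 under each alternative. Knockout response to Gly, 32 genes, was 26 to 33 with 1 library left out and 11 without the libraries lacking Y-linked transcripts. Knockout against wild type under saline, 6 genes, was 24 with array weights (32.4% of all features higher), 19 with only its groups in the fit (15.6%), 13 without the 2 wild-type Gly libraries (14.8%), 3 with no filter (3.37%), 0 without the libraries lacking Y-linked transcripts, 3 with quantile normalization (4.94%) and 2 to 9 with 1 library left out. It was 2 without saline knockout library 6 (3.85% of all features higher) and 3 without saline knockout library 1 (3.77%). It was also 3 without wild-type saline library 1 (4.31%), 3 (4.96%), 4 (4.62%) or 6 (4.56%). With 1 library left out, the share of all features higher was 3.77% to 11% in this saline comparison. For the knockout response to Gly that share was 19% to 30%. Under Gly the 14 lower genes became 24 with array weights (31.6% of all features lower), 7 with only its groups (11.6%), 23 without the 2 wild-type Gly libraries (32.2%) and 8 to 21 with 1 left out. The interaction, 16 genes, became 33 with array weights (42.7% of all features lower), 27 without the 2 wild-type Gly libraries, 0 without the libraries lacking Y-linked transcripts and 12 to 23 with 1 left out. With 1 library left out, the share of all features lower was 18.1% to 26.2% under Gly and 17.1% to 27% for the interaction. Fitting only the groups of a contrast gives no value for the interaction. Where only the groups or fewer libraries were fitted the spread was estimated anew, and beyond that the cause was not tested. With a replicate block the counts were 34, 31, 6, 14, 35 and 16 in the order wild-type response, knockout response, saline, Gly, knockout Gly against saline wild type and interaction. The titles do not say whether the replicate numbers pair animals. Over 36 pairs of the same number the median correlation of deviations was -0.02, and 7 exceeded 0.1, against 45 of 180 pairs of different number. Such correlations cannot show whether animals were paired. The depth is unknown, so genes near 0 FPKM, such as Ltbp2 and Mfap5 under saline, have no stated counting error.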
